A study of Homo sapiens with 9 samples.

Results

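Plasma membrane amino acid transporters were followed in OCI-Ly1, an established human cell line of diffuse large B-cell lymphoma. The set held 10 genes picked by name: SLC3A2, SLC7A5, SLC7A6, SLC7A11, SLC43A1, SLC7A1, SLC1A4, SLC1A5, SLC38A1 and SLC38A2. Earlier results of these data were known when the genes were chosen, so their contrast with all genes may in part reflect that choice. They are 10 of the 25370 gene symbols counted, and all 10 were among the 15089 genes with enough counts to be tested. The cells had been kept for 48 h in serum-containing medium with DMSO as vehicle or with JIB-04 at 150 nM or 500 nM. For each of these conditions, 3 libraries were sequenced out of total RNA cleared of ribosomal RNA. JIB-04 inhibits histone demethylases with a Jumonji domain, such as KDM4A and KDM4C. The labels name no genetic change in any group. Whether the libraries of a condition stem from separate cultures is not stated, and the spread that p-values rest on may be technical.

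Cells take up amino acids through membrane carriers of several solute carrier (SLC) families. SLC3A2 encodes the heavy chain CD98hc, a single-pass glycoprotein that brings several light chains to the cell surface, and the light chain decides what is carried: LAT1 (SLC7A5) exchanges large neutral amino acids such as leucine, y+LAT2 (SLC7A6) exchanges cationic for neutral amino acids, and xCT (SLC7A11) imports cystine in exchange for glutamate. The other carriers work without CD98hc. ATF4, the transcription factor of the integrated stress response, is known to act on many of these genes, NRF2 (NFE2L2) on SLC7A11 and MYC on SLC7A5 and SLC1A5. Dividing B cells are known to use them to take up leucine, glutamine and cystine.

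Libraries held 28476845 to 57198613 counts. Levels are given as CPM, library counts scaled to a common size after TMM normalization, a share of the RNA in a library, so fewer cells of a kind and less RNA per cell cannot be told apart. All 10 B-cell and germinal-centre markers were at 1 CPM or more in every group, with a summed level of 2407 to 2466 CPM in DMSO, 2386 to 2485 CPM at 150 nM and 2019 to 2103 CPM at 500 nM. At 500 nM, 2 of the 10 rose (EBF1 by 0.54 and PAX5 by 0.17 on the log2 scale) and 5 fell, most of all MME (by 0.57) and MS4A1 (by 0.47), and none was called at 150 nM. Over all genes tested, 26.3% were called higher and 25.6% lower at 500 nM, and 0.954% higher and 0.318% lower at 150 nM. The PAX5 call was lost without 500 nM replicate 2 (adjusted p = 0.0716, edgeR).

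The summed level of the 5 plasma cell markers was 284 to 324 CPM in DMSO, 317 to 339.5 CPM at 150 nM and 592 to 626.5 CPM at 500 nM. Of the 4 tested, 3 rose at 500 nM, against 26.3% of all genes: XBP1 by 1.63, TNFRSF17 by 1.38 and IRF4 by 0.88. TNFRSF17 also rose at 150 nM (0.37, adjusted p = 0.00769, edgeR), where 0.954% of all genes were called higher. That 150 nM call was lost in the fit of the 6 libraries compared (adjusted p = 0.0612) and without 150 nM replicate 2 (0.0906). PRDM1, the other one tested, was not called at 500 nM (-0.45, adjusted p = 0.146, edgeR). It averaged 1.49 CPM there and 2.06 CPM in DMSO. IRF4 held most of the sum, with means of 451 CPM at 500 nM and 245.5 CPM in DMSO. SDC1, a surface marker of plasma cells, had 20 counts over the 500 nM libraries and 0 counts at 150 nM and in DMSO. The 7 T and NK cell markers summed to 18.2 to 21.3 CPM in DMSO, 13.7 to 16.45 CPM at 150 nM and 8.18 to 8.93 CPM at 500 nM, where CD3D fell by 1.47 and CD3G by 1.33. The 7 myeloid markers summed to 2.365 to 2.86 CPM in DMSO, 1.12 to 1.96 CPM at 150 nM and 1.27 to 1.93 CPM at 500 nM, and S100A8, S100A9 and MPO were at 0 in all 9 libraries. The 7 epithelial, stromal and endothelial markers summed to 8.62 to 9.99 CPM in DMSO, 8.26 to 9.09 CPM at 150 nM and 4.875 to 5.86 CPM at 500 nM. At that dose the endothelial marker PECAM1 fell by 1.52 and EPCAM by 0.63. All 5 sums differed between 500 nM and DMSO without overlap. At 150 nM the sums of the B-cell and plasma cell markers and of the epithelial, stromal and endothelial ones overlapped DMSO. Those of the T and NK cell and myeloid markers did not, and of all these markers only TNFRSF17 was called at 150 nM. The part of these markers in the results was not tested.

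At 500 nM, 9 of the 10 transporter genes were higher than in DMSO and 1, SLC7A6, was lower. SLC43A1 rose most (7.87-fold), SLC1A5 and SLC7A11 rose about alike (3.15-fold and 3.04-fold), and SLC3A2 rose 2.45-fold. SLC7A5, SLC7A1, SLC1A4 and SLC38A2 rose 1.43-fold to 1.70-fold, and SLC38A1 1.10-fold. Across all genes, 26.3% were called higher and 25.6% lower at this dose, 52.0% in all, so a call by itself was common. A call of at least 2-fold higher, which 4 of the 10 reached, was made for 7.33% of all genes. The median log2 fold change was 0.74 over the 10 genes and 0.01 over all genes tested. No library at 500 nM overlapped the DMSO libraries for any of the 10, while 30.2% of all genes had all 500 nM libraries above DMSO and 29.0% had them below.

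At 150 nM, 5 of the 10 genes rose and none fell, against 0.954% of all genes called higher and 0.318% called lower (1.27% in all). The 5 were SLC43A1, SLC1A5, SLC7A11, SLC3A2 and SLC7A1, and they were also the 5 whose 150 nM libraries all lay above DMSO, which held for 6.41% of all genes (7.32% had them all below). None of the 10 reached a 2-fold rise at this dose, which 0.245% of all genes did. SLC7A1 was called at an adjusted p of 0.0447 only, and its call was lost without any 1 of the 9 libraries. The median log2 fold change was 0.21 over the 10 genes and -0.0033 over all genes. The doses share the DMSO libraries, so their values stand side by side and are not independent.

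**Figure D1:**
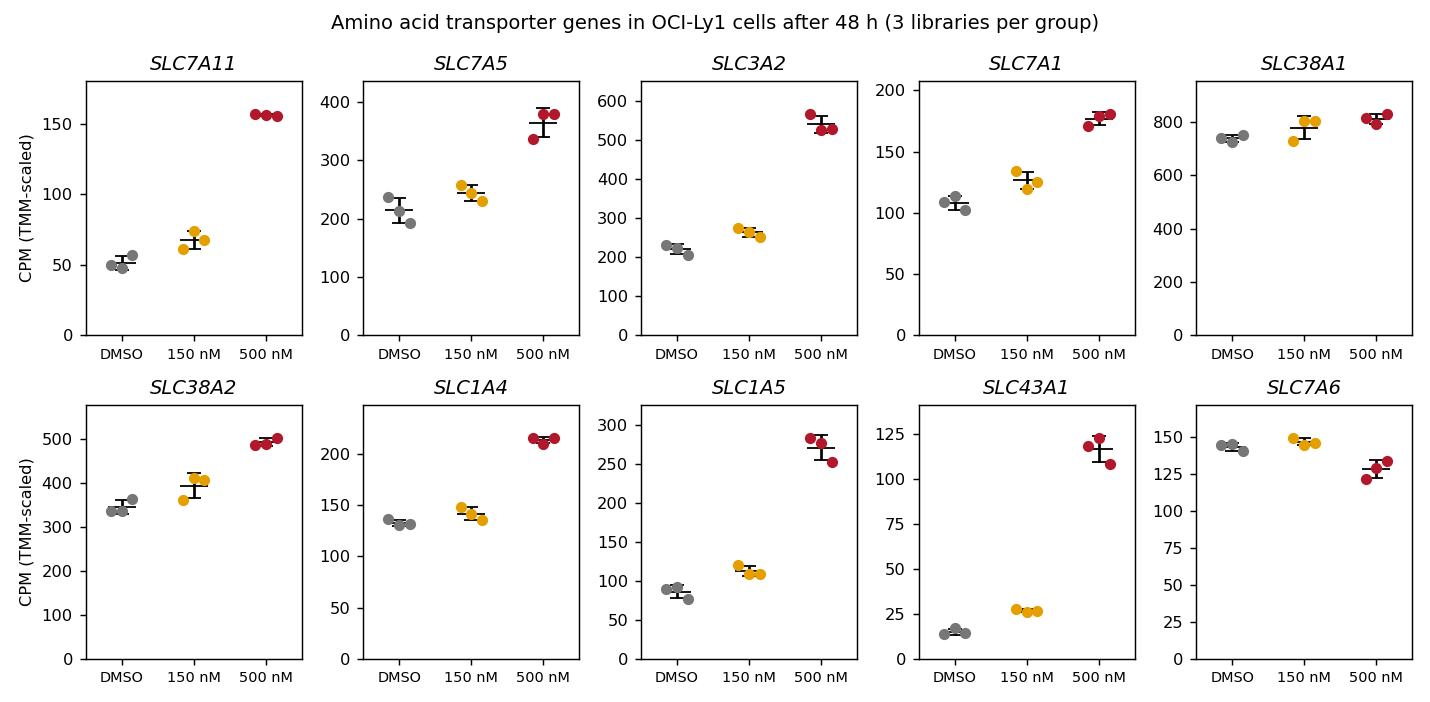
Level of each transporter gene in CPM (vertical axes start at 0) in DMSO, 150 nM and 500 nM JIB-04, with 1 point per library and the mean ± SD of 3 libraries as bars. The 500 nM libraries stand above DMSO in every panel but that of SLC7A6, where they stand below, and SLC43A1 shows the widest separation.

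SLC3A2, the shared heavy chain, had 232, 224 and 206.5 CPM in the DMSO libraries, 274, 265 and 252 CPM at 150 nM and 566, 527 and 528 CPM at 500 nM. The 3 groups formed separate bands, with the larger step between the doses. SLC3A2 rose by 1.29 ± 0.05 on the log2 scale at 500 nM (SE, n = 3 per group, adjusted p = 9.99e-18, edgeR's quasi-likelihood test) and by 0.26 ± 0.05 at 150 nM (adjusted p = 0.00655).

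SLC7A11, whose product xCT brings in the cystine used for glutathione, had 49.5, 47.5 and 56.8 CPM in DMSO, 61.0, 74.0 and 67.5 CPM at 150 nM and 157, 156 and 156 CPM at 500 nM. The 500 nM libraries lay within 1 CPM of each other, while those of DMSO and 150 nM were spread more widely but did not overlap. SLC7A11 rose by 1.61 ± 0.07 on the log2 scale at 500 nM (adjusted p = 5.92e-17, edgeR) and by 0.39 ± 0.07 at 150 nM (adjusted p = 0.00151). The antisense gene SLC7A11-AS1, whose exons overlap SLC7A11, rose by 0.84 ± 0.21 at 500 nM (adjusted p = 0.00135). Its counts were 2.79% of those of SLC7A11 at 500 nM and 4.70% in DMSO. The sources do not state whether counting used the strand. Reads of a gene and of an overlapping gene on the other strand cannot be told apart.

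SLC7A5, which encodes the leucine carrier LAT1, had 237, 212 and 193 CPM in DMSO, 258, 244 and 231 CPM at 150 nM and 336, 379 and 379 CPM at 500 nM. The DMSO and 150 nM libraries overlapped, and only the 500 nM libraries stood apart. SLC7A5 rose by 0.77 ± 0.06 on the log2 scale at 500 nM (adjusted p = 1.85e-10, edgeR) and was not called at 150 nM, where its log2 fold change was 0.19 (95% interval 0.06 to 0.32, adjusted p = 0.22). It was called at 150 nM when the GC trend of each library was removed (0.22, adjusted p = 0.000608), with no filter on low counts (adjusted p = 0.0149) and without DMSO replicate 1 (0.27, adjusted p = 0.0227).

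A pair of SLC7A5 pseudogenes was counted in rows of their own, and both moved further than their parent. SLC7A5P2 had 31.4, 26.3 and 24.98 CPM in DMSO, 27.3, 26.4 and 23.5 CPM at 150 nM and 86.6, 83.4 and 75.4 CPM at 500 nM. It rose by 1.57 ± 0.09 on the log2 scale at 500 nM (adjusted p = 5.55e-15, edgeR), and SLC7A5P1 rose by 2.004 ± 0.125 (adjusted p = 1.24e-13). The counts of SLC7A5P2 were 22.6% of those of SLC7A5 at 500 nM, against 12.9% in DMSO. Reads that match several of these near-identical copies could be split between their rows or lost, so the value of SLC7A5 is uncertain to that extent. When the 3 rows were summed, a choice made after the values were seen, the log2 fold change was 0.92 at 500 nM (adjusted p = 1.68e-12) and 0.16 at 150 nM (adjusted p = 0.315).

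**Figure D2:**
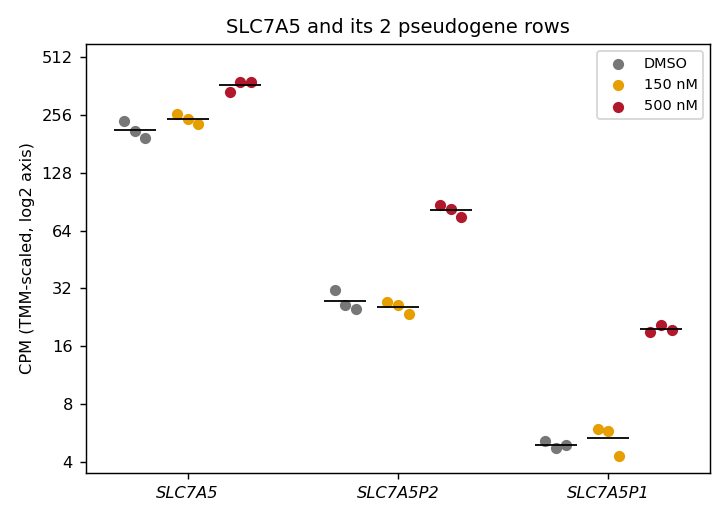
Level of SLC7A5 and its pseudogenes SLC7A5P2 and SLC7A5P1 in CPM on a log2 axis, with 1 point per library and a line at the mean of 3 libraries, for DMSO, 150 nM and 500 nM JIB-04. The step between 150 nM and 500 nM is wider for both pseudogenes than for SLC7A5, and the DMSO and 150 nM libraries overlap in all 3 rows.

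SLC7A6, the y+LAT2 light chain, was the exception in direction. It had 144.9, 145.6 and 140.5 CPM in DMSO, 149.7, 145.0 and 146.5 CPM at 150 nM and 122, 129 and 134 CPM at 500 nM. The 500 nM libraries were all below the others, but by little. SLC7A6 fell by 0.16 ± 0.05 on the log2 scale at 500 nM (adjusted p = 0.0131, edgeR), and its log2 fold change at 150 nM was 0.03 (adjusted p = 0.887). The call was lost without 500 nM replicate 1 (-0.13, adjusted p = 0.0958). It was also lost with scaling by total counts (-0.02, adjusted p = 0.756), which raises the median of all genes to 0.15, against 0.01 with TMM, so SLC7A6 then lay below that median by about as much. SLC7A6OS, a gene on the other strand whose exons overlap SLC7A6, rose by 0.33 ± 0.09 (adjusted p = 0.00323).

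Set per length, the heavy chain outgrew its partners. SLC3A2 had 243 ± 10.0 CPM per kb of its longest transcript at 500 nM and 99.3 ± 5.8 in DMSO (SD, n = 3 each), while the summed level of the light chains SLC7A5, SLC7A6, SLC7A7, SLC7A8, SLC7A10 and SLC7A11 was 122 ± 6.5 CPM per kb at 500 nM and 83.7 ± 4.2 in DMSO. The ratio of heavy to light chains was 1.19, 1.21 and 1.17 in the DMSO libraries, 1.30, 1.29 and 1.28 at 150 nM and 2.23, 1.90 and 1.89 at 500 nM. The groups did not overlap, and the step between the doses was the larger one. Within the light chains, SLC7A11 made up 13.3% of the level per kb at 500 nM, against 6.38% in DMSO, and SLC7A5 66.0% at 500 nM, against 56.3% in DMSO. The SLC7A5 level, here and in the sum, leaves out its pseudogene rows, which rose more than SLC7A5 itself. SLC7A6 made up 16.7% at 500 nM and 27.25% in DMSO. SLC7A7, the y+LAT1 light chain, which is closely related to SLC7A6, made up 3.94% at 500 nM and 10.1% in DMSO. SLC7A8 and SLC7A10 were below 0.1% in every library. These shares and ratios were not tested; they are levels of RNA and say nothing of the amount of either chain as protein.

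**Figure D3:**
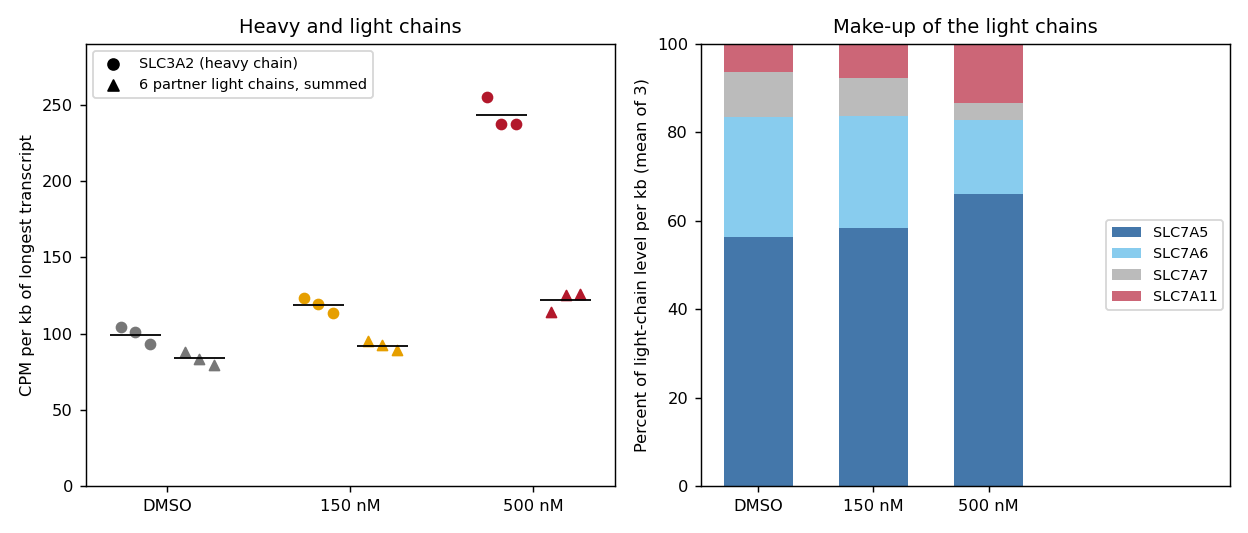
Left, level of the heavy chain SLC3A2 (circles) and of its 6 light chains summed (triangles) in CPM per kb of the longest transcript, 1 point per library with a line at the mean, for DMSO, 150 nM and 500 nM JIB-04. Right, mean share of each light chain in that sum (SLC7A8 and SLC7A10 are too low to show). The heavy chain reaches 243 CPM per kb at 500 nM against 122 for the light chains, and the share of SLC7A11 grows while those of SLC7A6 and SLC7A7 shrink.

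SLC43A1 encodes LAT3, which lets large neutral amino acids such as leucine through by facilitated diffusion and needs no heavy chain. It had 13.5, 17.0 and 14.1 CPM in DMSO, 27.7, 25.9 and 26.7 CPM at 150 nM and 118, 123 and 108 CPM at 500 nM. Each group was far from the next, and even the lower dose brought every library above 25 CPM. SLC43A1 rose by 2.98 ± 0.08 on the log2 scale at 500 nM (adjusted p = 2.13e-21, edgeR) and by 0.86 ± 0.08 at 150 nM (adjusted p = 7.36e-08). It had the largest log2 fold change of the 10 at either dose, and by rank from the top it was gene 207 of the 15089 tested at 500 nM and gene 322 at 150 nM.

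SLC7A1 encodes CAT1, the main carrier of arginine and lysine in many cells. It had 109, 113.5 and 102 CPM in DMSO, 134, 119.7 and 125.5 CPM at 150 nM and 171, 179 and 181 CPM at 500 nM. The groups did not overlap, though the gap between 150 nM and DMSO was small. SLC7A1 rose by 0.71 ± 0.06 on the log2 scale at 500 nM (adjusted p = 3.49e-11, edgeR) and by 0.23 ± 0.06 at 150 nM (adjusted p = 0.0447). Leaving out single libraries gave an adjusted p of 0.0512 to 0.139 for the 150 nM value, and fitting only the 6 libraries compared gave 0.156.

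The ASCT carriers exchange small neutral amino acids together with sodium. SLC1A5 (ASCT2), which carries glutamine, had 89.9, 91.7 and 76.7 CPM in DMSO, 119.7, 108 and 109 CPM at 150 nM and 283, 276 and 253 CPM at 500 nM. The 3 groups were separate. SLC1A5 rose by 1.65 ± 0.07 on the log2 scale at 500 nM (adjusted p = 3.87e-18, edgeR) and by 0.38 ± 0.07 at 150 nM (adjusted p = 0.000611).

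SLC1A4 (ASCT1), the relative that carries alanine, serine and cysteine, had 136.3, 130.3 and 131.4 CPM in DMSO, 148, 141 and 135.7 CPM at 150 nM and 216, 210.2 and 215 CPM at 500 nM. DMSO and 150 nM overlapped and only 500 nM stood apart. SLC1A4 rose by 0.69 ± 0.05 on the log2 scale at 500 nM (adjusted p = 9.03e-12, edgeR), and its log2 fold change at 150 nM was 0.09 (95% interval -0.01 to 0.20, adjusted p = 0.565).

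The SNAT carriers take up glutamine, alanine and other small neutral amino acids with sodium, and SNAT2 (SLC38A2) is the member known for its induction when amino acids run short. SLC38A2 had 336, 337 and 364 CPM in DMSO, 361.5, 413 and 408 CPM at 150 nM and 486, 489 and 503 CPM at 500 nM. It rose by 0.51 ± 0.05 on the log2 scale at 500 nM (adjusted p = 4.21e-09, edgeR). At 150 nM the lowest library overlapped DMSO and the gene was not called (0.19, 95% interval 0.08 to 0.30, adjusted p = 0.0804). That value was called under 7 of 21 other settings, with adjusted p-values of 0.00121 to 0.474 over all settings.

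SLC38A1 (SNAT1) had the most counts of the 10 and changed least among those that rose. It had 740.5, 724.7 and 751.5 CPM in DMSO, 730.2, 803.5 and 803.2 CPM at 150 nM and 815.8, 792.2 and 829.4 CPM at 500 nM. The 150 nM libraries straddled the others, with replicate 1 among the DMSO values. SLC38A1 rose by 0.14 ± 0.05 on the log2 scale at 500 nM (adjusted p = 0.0158, edgeR), a call lost without DMSO replicate 2 (adjusted p = 0.0685), 500 nM replicate 1 (0.0515) or 500 nM replicate 3 (0.074). Its log2 fold change at 150 nM was 0.08 (adjusted p = 0.629).

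**Figure D4:**
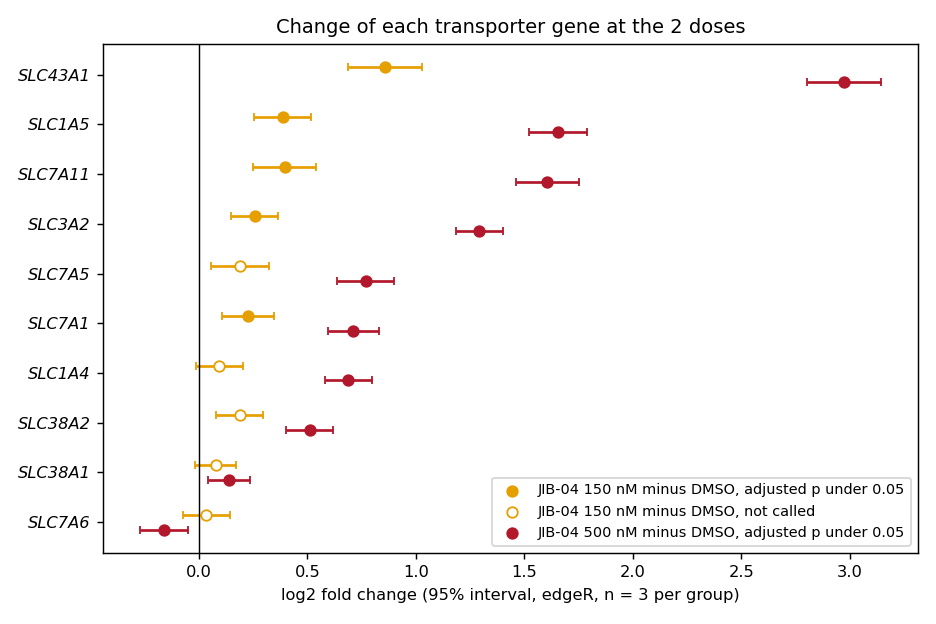
Log2 fold change of each transporter gene at 150 nM (orange) and 500 nM (red) JIB-04 against DMSO, with 95% intervals from edgeR (n = 3 libraries per group). Filled points have an adjusted p under 0.05, and genes run from the largest value at 500 nM, SLC43A1 at 2.98, to the lowest, SLC7A6 at -0.16.

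Between the doses, 8 genes were higher at 500 nM than at 150 nM, SLC7A6 was lower and SLC38A1 was not called, against 23.7% of all genes called higher and 22.8% called lower (46.5% in all). The same 9 were the genes whose libraries did not overlap between the doses, and 29.0% of all genes lay higher and 26.0% lower in that way. At least 2-fold higher were 4 of the 10 and 5.82% of all genes. The log2 fold changes were 2.12 for SLC43A1, 1.27 for SLC1A5, 1.21 for SLC7A11 and 1.03 for SLC3A2, and 0.32 to 0.59 for SLC1A4, SLC7A5, SLC7A1 and SLC38A2. SLC7A6 fell by 0.20 (adjusted p = 0.00369, edgeR), a call lost with scaling by total counts (-0.07, adjusted p = 0.273). SLC38A1 had a log2 fold change of 0.06 (95% interval -0.04 to 0.16, adjusted p = 0.301) and was called with total counts (0.18, adjusted p = 0.0013) and with the GC trend removed (0.12, adjusted p = 0.00355). The 150 nM value was 28.8% of the 500 nM value on the log2 scale for SLC43A1, 23.3% for SLC1A5, 24.6% for SLC7A11, 19.9% for SLC3A2 and 31.8% for SLC7A1. For the genes not called at 150 nM it was 13.7% for SLC1A4, 24.7% for SLC7A5, 36.7% for SLC38A2, 55.6% for SLC38A1 and -21.2% for SLC7A6. These are ratios of fitted values without an interval.

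The order of the levels shifted with dose. On the scale of CPM per kb, the order in DMSO was SLC3A2 (99.3), SLC38A1 (91.6), SLC38A2 (70.8), SLC7A5 (47.2), SLC1A5 (29.9), SLC1A4 (22.9), SLC7A6 (22.8), SLC7A1 (14.7), SLC43A1 (5.73) and SLC7A11 (5.31). The libraries of SLC3A2 and SLC38A1, of SLC1A4 and SLC7A6, and of SLC43A1 and SLC7A11 overlapped there, while the other neighbours did not. At 150 nM the order was the same, and only SLC1A4 (24.5) and SLC7A6 (23.3) overlapped. At 500 nM it was SLC3A2 (243), SLC38A2 (100.8), SLC38A1 (100.7), SLC1A5 (93.9), SLC7A5 (80.4), SLC43A1 (44.8), SLC1A4 (36.9), SLC7A1 (24.1), SLC7A6 (20.4) and SLC7A11 (16.2), with SLC38A2, SLC38A1 and SLC1A5 overlapping as neighbours. SLC43A1, ninth in DMSO, was sixth at 500 nM, and SLC7A11 was the lowest per kb in all 3 groups. Together the 10 genes took 0.198% of the counts in DMSO, 0.225% at 150 nM and 0.348% at 500 nM. SLC38A1 made up 24.8% of that sum at 500 nM and 35.9% in DMSO, and SLC3A2 16.5% at 500 nM and 10.7% in DMSO.

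Ratios of related genes within a library need no scaling between libraries, and 6 pairs were compared at each dose. The log2 ratio of counts of SLC7A6 to SLC3A2 was -2.22, -2.03 and -1.98 in the 500 nM libraries, against -0.68, -0.62 and -0.56 in the DMSO libraries, a difference of -1.46. The 500 nM libraries were all far lower, so SLC7A6 lost ground to its heavy chain whichever scaling is used. SLC7A5 also fell behind, with log2 ratios to SLC3A2 of -0.75, -0.47 and -0.48 at 500 nM and 0.03, -0.075 and -0.10 in DMSO, a difference of -0.52. SLC7A11 did the opposite, by a small margin: its log2 ratio to SLC3A2 was -1.85, -1.75 and -1.76 at 500 nM, against -2.23, -2.24 and -1.86 in DMSO, a difference of 0.32 in which DMSO replicate 3 nearly met the 500 nM libraries. The SLC7A5 ratio rests on its own row. Summed with its pseudogene rows, SLC7A5 averaged 466.4 CPM at 500 nM and 246.6 CPM in DMSO, a smaller lag behind SLC3A2 (540.5 and 220.7 CPM).

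The ASCT pair changed places by counts, which are not set per length. Per kb of the longest transcript, SLC1A5 stood above SLC1A4 in every group. The means were 29.9 and 22.9 CPM per kb in DMSO, 39.0 and 24.5 at 150 nM and 93.9 and 36.9 at 500 nM. The log2 ratio of SLC1A4 to SLC1A5 was -0.39, -0.39 and -0.23 in the 500 nM libraries, against 0.60, 0.51 and 0.78 in the DMSO libraries, so SLC1A4 had more counts than SLC1A5 in DMSO and fewer at 500 nM. The difference was -0.97 at 500 nM and -0.29 at 150 nM. The log2 ratio of SLC38A2 to SLC38A1 was higher by 0.37 at 500 nM and by 0.11 at 150 nM. The log2 ratio of the leucine carriers SLC7A5 and SLC43A1 was lower at both doses, with means of 3.85 in DMSO, 3.19 at 150 nM and 1.65 at 500 nM. All 6 ratios at 500 nM, and 4 of 6 at 150 nM, had no overlap with DMSO. The exact two-sided permutation test over 3 against 3 libraries cannot give a p below 0.10, which those 10 comparisons reached (0.12 after adjustment over the 12 tests), so none passes 0.05. For SLC7A11 to SLC3A2 and SLC7A5 to SLC3A2 at 150 nM the exact p-values were 0.30 and 0.20.

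**Figure D5:**
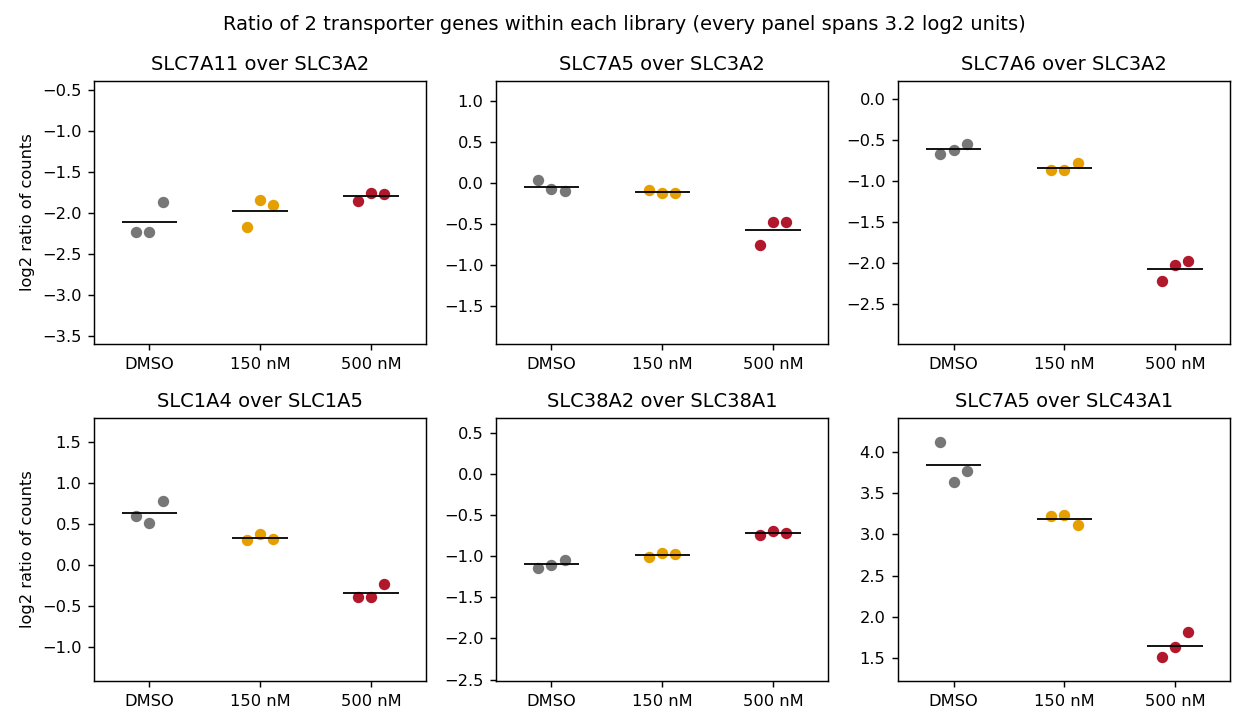
Log2 ratio of the counts of 2 transporter genes within each library in DMSO, 150 nM and 500 nM JIB-04, 1 point per library with a line at the mean of 3 libraries. Every panel spans the same width of the log2 scale, so steps can be compared by eye: those of SLC7A5 over SLC43A1 and SLC7A6 over SLC3A2 are the largest, and SLC1A4 over SLC1A5 crosses 0. The counts are not set per length, so the side of 0 does not rank the levels of 2 genes.

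Upstream sequence was looked at because ATF4, NRF2 and MYC are known to act on genes of this set. The RefSeq promoter table used (build GRCh38.p14) held 16 starts for 9 of the 10 genes, SLC7A11 not searched, and both strands of the 250 bases before each start were searched for 4 motifs. The E-box CACGTG, which MYC can bind, was found before 3 starts of 3 genes (SLC7A5, SLC43A1 and SLC1A5), and 6.3% of all 35116 promoters of that length hold it. The NRF2-MAF motif TGACNNNGC was found before 4 starts of 4 genes (SLC3A2, SLC7A1, SLC1A5 and SLC7A6), against 10.9% of all promoters. The ATF4-CEBP motif TGATGNAA was found before 1 start, of SLC1A5 (3.1% of all), and the CRE motif TGACGTCA before none (1.6% of all). Sequence outside those 250 bases, introns included, was not searched, so motifs there would be missed. The matches did not overlap each other. Those of SLC1A5 and SLC3A2 lie in annotated exons and are not printed. The stretches below are on the strand of the gene with the motif in capitals, for the gene that rose most, for the LAT1 gene, for the CAT1 gene and for the gene that fell:
SLC43A1, E-box, minus strand of chr11:57515787-57515859: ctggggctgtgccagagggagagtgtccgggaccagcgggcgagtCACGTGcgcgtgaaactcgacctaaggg
SLC7A5, E-box, minus strand of chr16:87869587-87869682: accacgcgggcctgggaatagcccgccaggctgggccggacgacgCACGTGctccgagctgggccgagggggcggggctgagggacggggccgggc
SLC7A1, NRF2-MAF motif, minus strand of chr13:29595720-29595818: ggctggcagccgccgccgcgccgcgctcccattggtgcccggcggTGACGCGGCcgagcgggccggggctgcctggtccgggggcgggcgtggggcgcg
SLC7A6, NRF2-MAF motif, plus strand of chr16:68264452-68264515: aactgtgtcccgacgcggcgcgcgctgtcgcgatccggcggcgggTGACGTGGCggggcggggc

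The E-box ended 107 bases before the start of SLC43A1 and 125 bases before that of SLC7A5, and the motif shown for SLC7A6 ended 21 bases before its start. SLC43A1, with the largest rise, and SLC7A5, with a moderate one, thus share the same 6 letters, and the NRF2-MAF motif stands before genes that rose (SLC7A1) and before the one that fell (SLC7A6). A match shows letters only and says nothing of binding in these cells.

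The known regulators of these genes were measured in the same fit. Of the 17 tested members of a list of 18 transcription factors and kinases, 13 rose and 2 fell at 500 nM, with a median log2 fold change of 0.27, and 6 rose and none fell at 150 nM. All genes tested were called higher in 26.3% and lower in 25.6% of cases at 500 nM, and in 0.954% and 0.318% at 150 nM, and their median at 500 nM was 0.01. ATF4 averaged 828 CPM at 500 nM and 551 CPM in DMSO, a log2 fold change of 0.59 ± 0.04 (adjusted p = 7.67e-12, edgeR), and 0.15 at 150 nM (adjusted p = 0.104). The largest rises of the list at 500 nM were those of ATF3 (5.95 ± 0.19) and CEBPB (3.97 ± 0.11), transcription factors of the same family. MYC rose by 0.27 ± 0.05 and NFE2L2 by 0.23 ± 0.07. EIF2AK4, which encodes GCN2, the kinase that senses uncharged tRNA when amino acids are short, fell by 0.64 ± 0.05, and EIF2AK2, which encodes the double-stranded RNA sensor PKR, fell by 0.41 ± 0.07.

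Other amino acid carriers were called in both directions. Of 10 further genes of the SLC7 family and SLC3A1, 2 had enough counts to be tested, and SLC7A7 fell by 0.80 ± 0.09 at 500 nM (adjusted p = 1.26e-08, edgeR). Of 29 other plasma membrane carriers, 13 were tested, 5 rose and 4 fell at 500 nM (26.3% and 25.6% of all genes), and their median was 0.0015 on the log2 scale. The glycine transporter gene SLC6A9 rose by 4.04 ± 0.14, to 44.0 CPM at 500 nM against 2.72 CPM in DMSO, and SLC38A6 by 0.59 ± 0.14. The taurine transporter gene SLC6A6 fell by 1.01 ± 0.06, to 78.5 CPM at 500 nM against 158 CPM in DMSO, and SLC38A5 (SNAT5) by 0.66 ± 0.14. SLC43A2, of the same family as SLC43A1, fell by 0.52 ± 0.07, to 123 CPM at 500 nM against 177 CPM in DMSO. SLC43A3 of that family was not called at 500 nM (0.03, adjusted p = 0.651, edgeR). At 150 nM, SLC6A9 was also higher (1.69, adjusted p = 8.1e-09) and SLC6A6 lower (-0.24, adjusted p = 0.0193). The SLC6A6 call at 150 nM was lost in the fit of the 6 libraries compared (adjusted p = 0.0654) and without single libraries: DMSO replicate 1 (0.0543), DMSO replicate 2 (0.153), 150 nM replicate 2 (0.136) and 150 nM replicate 3 (0.0935).

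Of 7 tested lysosomal carriers, 2 rose and 3 fell at 500 nM, with a median of -0.22, against 26.3% higher and 25.6% lower over all genes. SLC38A9, the arginine-gated carrier that signals to mTORC1, rose by 0.45 ± 0.08 (adjusted p = 6.37e-05, edgeR) and the cystine exporter gene CTNS by 0.39 ± 0.11. SLC36A1 fell by 0.41 ± 0.13 (adjusted p = 0.00762) and SLC15A4, which carries histidine and peptides, by 0.37 ± 0.08. The SLC36A1 call was lost with total counts (adjusted p = 0.0743), without DMSO replicate 2 (0.0519) and without 500 nM replicate 2 (0.0582). Of 14 mitochondrial carriers, 3 rose and 7 fell, with a median of -0.23, against 26.3% higher and 25.6% lower over all genes. The 3 include SLC1A5, which also counts among the 10 genes and of which a mitochondrial form has been described. The serine carrier gene SFXN1 fell by 0.62 ± 0.05 and the aspartate-glutamate carrier gene SLC25A13 by 0.55 ± 0.06, while SFXN3, at 2.37 CPM at 500 nM, rose by 1.03 ± 0.28. None of the lysosomal carriers was called at 150 nM, and SLC1A5 was the 1 mitochondrial one that was.

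Enzymes that use what these carriers bring in were counted in the same way. Of 12 cystine and glutathione genes, 5 rose and 5 fell at 500 nM (26.3% and 25.6% of all genes), and 3 rose at 150 nM (0.954% of all genes). CHAC1, which breaks down glutathione, averaged 108 CPM at 500 nM and 4.69 CPM in DMSO, and CTH, which makes cysteine out of cystathionine, rose by 3.07 ± 0.08 (adjusted p = 6.61e-22, edgeR). Glutathione reductase (GSR) fell by 0.53 ± 0.05 and thioredoxin reductase (TXNRD1) by 0.33 ± 0.05, so SLC7A11 and the reductases that turn oxidised glutathione and thioredoxin back moved in opposite directions. Of 14 genes that make or use glutamine, asparagine and serine, 9 rose and 3 fell at 500 nM, with a median of 1.002, and 6 rose at 150 nM. The shares of all genes were 26.3% higher and 25.6% lower at 500 nM and 0.954% higher at 150 nM. PSAT1 of serine synthesis rose by 2.38 ± 0.06 and glutamine synthetase (GLUL) by 2.07 ± 0.13, while the glutaminase gene GLS2 fell by 0.87 ± 0.14 and GOT2 by 0.39 ± 0.05.

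Of 31 genes of amino acid sensing upstream of mTORC1, 8 rose and 10 fell at 500 nM, and 1 rose at 150 nM. With 26.3% of all genes called higher and 25.6% lower at 500 nM, the counts at that dose are near the background. At 150 nM, 0.954% of all genes were called higher. SESN2, a leucine sensor, averaged 209 CPM at 500 nM and 16.75 CPM in DMSO, and RRAGD, one of the Rag GTPases, rose by 1.61 ± 0.13 (adjusted p = 3.81e-11, edgeR). LAMTOR4 of the Ragulator complex fell by 0.51 ± 0.06 and SEC13 of the GATOR2 complex by 0.49 ± 0.06. Of 7 tested genes known to hold carriers at the surface or remove them, 3 rose and 1 fell at 500 nM (26.3% and 25.6% of all genes). NEDD4, a ubiquitin ligase that acts on membrane carriers, rose by 1.53 ± 0.10 and TXNIP, an arrestin-like protein, by 0.78 ± 0.05, while the related ligase NEDD4L fell by 0.49 ± 0.06. CD44, a variant of which holds xCT at the surface of carcinoma cells, had 4 counts over the 500 nM libraries and 0 in DMSO.

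The patterns most like 3 of the carriers were sought among 10178 genes, by the root mean square difference of log2 CPM over the 9 libraries, each gene set relative to its own DMSO mean. For SLC7A11 they were CREBRF (0.07), the serine synthesis gene PSPH (0.10) and NEDD4 (0.10), with log2 fold changes at 500 nM of 1.56, 1.67 and 1.53 beside 1.61. For SLC3A2 they were CARS (0.03), which encodes cysteinyl-tRNA synthetase, GPT2 (0.06), the mitochondrial alanine transaminase, and the PKD1 pseudogene PKD1P1 (0.08), with 1.30, 1.33 and 1.26 beside 1.29. Reads of PKD1P1 can be split with the near-identical copies of its family. For SLC7A6 they were PRKDC, ANAPC5 and PRR3 (0.03 to 0.04), with -0.13, -0.18 and -0.15 beside -0.16, and PRR3 was not called.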

How the data were processed

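Groups, doses and replicate numbers were taken from the sample titles and labels. The authors deposited unnormalized read counts, with gene symbols as rows and libraries as columns. Per the submitters' processing notes, the tools were featureCounts 1.4.6, Subread, Bowtie2 2.2.6 and TopHat2 2.0.14, with the builds hg19 and mm10 and no role for each, so coordinates are given only for RefSeq sequences of GRCh38.p14. Transcript lengths are those of the longest GENCODE transcript.

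Counts were analysed with edgeR 4.0.16 in R 4.3.3 (filterByExpr with a minimum count of 10 and minimum total of 15, TMM scaling, robust quasi-likelihood fit over all 9 libraries). A gene was called at a Benjamini-Hochberg adjusted p under 0.05 over the 15089 genes tested. Rose, fell, higher and lower of single genes mean called. CPM are TMM-scaled. Likeness used a prior count of 2. The fits were tested on simulated counts. Same-group libraries differed by more than sampling noise (chi-square per degree of freedom 6.34 to 15.2), so all 9 were kept. Reads carry no molecular identifiers.

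The 10 genes and the lists were chosen with earlier results of these data known. Of each list the text names up to 2 called genes with the largest rise and 2 with the largest fall at 500 nM if the higher group averaged 1 CPM or more, other carriers called at 150 nM, and ATF4, NFE2L2, MYC and EIF2AK4. The 3 genes most like SLC7A11, SLC3A2 and SLC7A6 are also named. Genes that overlap or copy a member, SLC7A8, SLC7A10, SLC43A2, SLC43A3, S100A8, S100A9, MPO, SDC1, IRF4, PRDM1 and CD44 were named outside this rule. Of the list genes, 4 were matched by an older symbol. Alternatives were DESeq2 1.42.0, limma-voom (limma 3.58.1), other scalings and filters, the replicate number as a block, single libraries left out, the 20 most abundant genes left out, GC trends removed (span 0.3) and libraries thinned to the smallest total.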

Additional observations from a re-analysis of the deposited data

How the results depend on the processing

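Over the 3 comparisons of the 10 transporter genes, 630 log2 fold changes were recomputed under 21 alternatives: none changed direction, 600 kept their side of the threshold, 18 lost a call and 12 gained one, and the cause was not tested. SLC43A1, SLC1A5, SLC7A11 and SLC3A2 were called at 150 nM under all 21. The count of genes called among the 10 ran from 4 to 7 at 150 nM, from 8 to 10 at 500 nM and from 9 to 10 between the doses. The number of all genes called at 150 nM, 192, is less stable: it was 320 with no filter, 291 with DESeq2, 101 in a fit of only the 6 libraries compared, 359 with the GC trend removed and 98 to 545 when single libraries were left out (98 without 150 nM replicate 2, 107 without DMSO replicate 2 and 545 without 150 nM replicate 1). With the replicate block it was 308, and 6 of the 10 transporter genes were called, SLC38A2 in addition (0.19, adjusted p = 0.0227). The replicate numbers were not taken to pair the libraries. Same-numbered libraries of DMSO and 150 nM deviated together with correlations of 0.01 to 0.10. Differently numbered ones had -0.0829 to 0.0081, all lower. Deviations were taken from the group mean, so positive values for same-numbered libraries push the others down, which is no separate evidence. A weak pairing of these 2 groups was not excluded. Same-numbered libraries of DMSO and 500 nM had -0.0525 to -0.0039, against -0.0174 to 0.0352 for differently numbered ones. Those of 150 and 500 nM had -0.0077 to 0.0036, against -0.0148 to 0.0171. The block changed no other call among the 10. Scaling by total counts called 5716 genes higher and 2514 lower at 500 nM, against 3975 and 3868 with TMM, and 5257 and 2137 between the doses, against 3577 and 3444. Under it PRKDC turned to 0.0102 (adjusted p = 0.847) and ANAPC5 was no longer called at 500 nM (-0.04, adjusted p = 0.53). The PRKDC call was also lost without 500 nM replicate 1 (adjusted p = 0.0568). With 3 libraries per group, small steps such as those of SLC38A1 and SLC7A6 rest on single libraries, and the levels of all 10 genes, of at least 464 counts per library, are not limited by depth.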
